A study of Mus musculus with 16 samples.

Results

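The 10 genes described here encode subunits of the transcription factor NF-kappaB, inhibitors of it and other proteins that act with it. They were taken by gene symbol from a table of 19457 genes measured in mouse striatum. They comprise the subunit genes Rela, Nfkb1, Relb and Nfkb2, the cytoplasmic inhibitor genes Nfkbia and Nfkbie, the nuclear inhibitor-like genes Bcl3 and Nfkbiz, the ubiquitin-editing enzyme gene Tnfaip3 and the kinase gene Ikbke. All 10 were in the table and passed the filter on low counts. RNA was sequenced from GS mice, read here as carriers of the LRRK2 G2019S change named in the series title, and from wild-type (WT) mice. Striatum was taken 6 h, 3 d or 15 d after 0.8 µl of 500 mM ATP had been injected on 1 side, or from intact brain, which gave 8 groups of 2 libraries labelled as biological replicates. ATP released by damaged cells acts as a danger signal, and the injected stages differ from the intact one by needle, volume and ATP together. The labels used here give no age, strain background or sex for these mice, and do not say how the G2019S change is carried.

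NF-kappaB subunits bind DNA as pairs, and in resting cells inhibitors of the IkappaB family keep these pairs in the cytoplasm. In the canonical route, receptors for tumour necrosis factor, interleukin-1 or microbial and damage signals lead to breakdown of IkappaB proteins and entry of RelA and p50 pairs into the nucleus. In the non-canonical route, the p100 precursor encoded by Nfkb2 is cut to p52, which pairs with RelB. Several of the pathway's own genes are known targets of the factor, so that their RNA is often read as a sign of pathway activity, and in brain the pathway is best known from microglia, astrocytes and endothelium. RNA levels carry no measure of protein breakdown or nuclear entry.

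Total counts ran from 49220578 to 63948110 per library, and member counts from 7 (Bcl3 in WT intact replicate 2) to 1841 (Nfkb1 in GS 15 d replicate 2). Striatal neuron markers summed to 6132 to 10626 CPM, where CPM is the count scaled by library size. Cortical neuron markers (6 of 7 in the table) were high in WT intact replicate 1 (193 CPM, against 34.9 in replicate 2) and in WT 6 h replicate 2 (113 CPM, against 36.2 in replicate 1), while the other 12 libraries held 18.1 to 66.2 CPM. Microglial markers (7 of 7) summed to 394 to 415 CPM in intact striatum, 277 to 309 CPM at 6 h, 759 to 1443 CPM at 3 d and 870 to 1762 CPM at 15 d. Reactive astrocyte markers (4 of 4) summed to 83.2 to 92.8, 146 to 221, 1313 to 1847 and 969 to 1912 CPM over the same stages. The infiltrating monocyte list had 3 of 7 genes in the table and summed to 20.3 to 32.8, 19.9 to 22.2, 60.6 to 150.3 and 39.0 to 94.6 CPM. The neutrophil list had 1 gene of 7 in the table and the lymphocyte list 0 of 7, so those cells were not assessed here. Lrrk2 itself lay between 109.9 and 217 CPM in all 16 libraries. It was 168 and 217 CPM in intact GS striatum against 135 and 163 in WT, and 135 and 136 at 6 h in both genotypes. At 3 d it was 171 and 178 CPM in GS against 208 and 157 in WT, and at 15 d 123 and 113 against 112 and 110. Since the labels do not say how the change is carried, these levels were not used to check the genotype.

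Per transcript length, Nfkbia and Rela stood highest among the members in intact striatum and Bcl3 lowest. Mean levels over the 4 intact libraries were 8.08 ± 1.13 CPM per kb for Nfkbia, 6.52 ± 0.47 for Rela and 3.70 ± 0.30 for Nfkb1 (SD, n = 4). Tnfaip3 at 1.39 ± 0.16 CPM per kb, Nfkbiz at 1.29 ± 0.15 and Relb at 1.196 ± 0.20 followed (SD, n = 4). The lowest 4 were Nfkb2 at 0.81 ± 0.20 CPM per kb, Nfkbie at 0.54 ± 0.05, Ikbke at 0.38 ± 0.01 and Bcl3 at 0.12 ± 0.05 (SD, n = 4). Neighbours in this order overlapped in their ranges for Nfkbia and Rela, for Tnfaip3, Nfkbiz and Relb, and for Nfkb2 and Nfkbie, and the other steps did not overlap. At 15 d Bcl3 had reached 1.13 ± 0.28 CPM per kb, within the range of Ikbke (1.03 ± 0.24) and Nfkbie (1.03 ± 0.33), and Nfkbia still stood highest at 12.9 ± 1.68 CPM per kb (SD, n = 4).

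**Figure D1:**
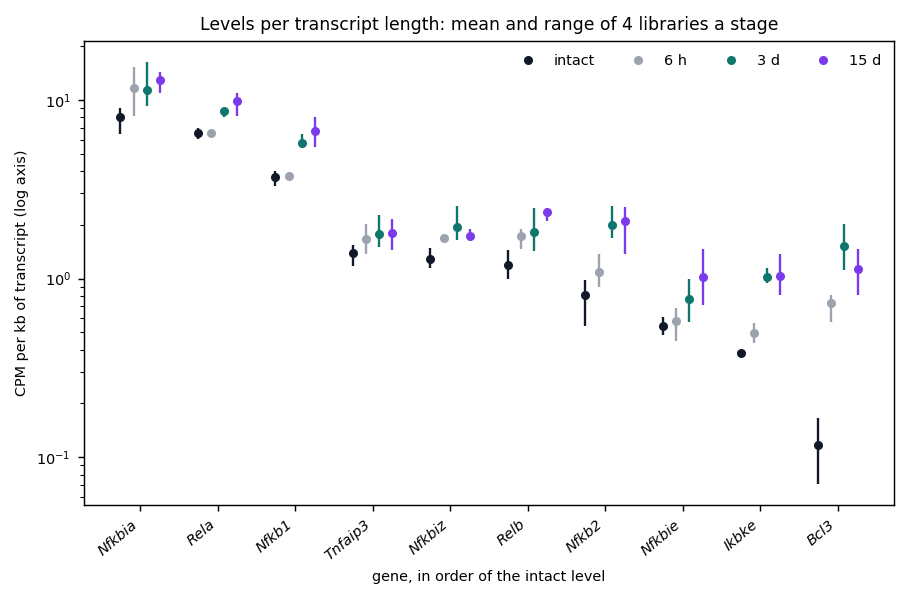
CPM per kb of transcript (log axis) for the 10 genes, ordered by their intact level, at each stage, where points are means and lines the range of 4 libraries (2 GS and 2 WT). Bcl3 starts at 0.12 CPM per kb in intact striatum and lies among Nfkbie and Ikbke at 15 d, while Nfkbia, Rela and Nfkb1 keep the 3 highest places at every stage.

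RefSeq promoter windows (GRCm38.p6, 300 bases, from 250 before to 50 after a transcription start) were at hand for 7 of the 10 genes and 10 starts, and those of Bcl3, Nfkbia, Nfkb2, Tnfaip3, Nfkbie and Ikbke are shown because these genes give the injury and genotype results that follow. Several starts of a gene are numbered by genome position. For Tnfaip3, on the minus strand, the second start is therefore the upstream one, at the 5' end of the gene. The windows were searched on both strands for the core of the NF-kappaB binding site, GGNNNTTCC, and for the longer decameric kappaB consensus, and capitals mark every base in a match to either.
Bcl3, chr7:19822706-19823005, minus strand: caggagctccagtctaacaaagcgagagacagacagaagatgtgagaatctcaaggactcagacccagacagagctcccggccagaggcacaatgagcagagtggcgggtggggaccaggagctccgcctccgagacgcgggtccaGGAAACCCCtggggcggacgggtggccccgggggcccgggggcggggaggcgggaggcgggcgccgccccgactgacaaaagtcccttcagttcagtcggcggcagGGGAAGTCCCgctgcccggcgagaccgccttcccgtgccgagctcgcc
Nfkbia, chr12:55492598-55492897, minus strand: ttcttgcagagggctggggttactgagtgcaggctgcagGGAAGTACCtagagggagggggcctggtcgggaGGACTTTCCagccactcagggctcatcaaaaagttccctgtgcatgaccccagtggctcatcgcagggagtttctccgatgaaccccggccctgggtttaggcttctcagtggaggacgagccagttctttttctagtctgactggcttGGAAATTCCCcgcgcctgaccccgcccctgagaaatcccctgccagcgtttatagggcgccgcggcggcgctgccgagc
Nfkb2, second of 3 starts, chr19:46305445-46305744, plus strand: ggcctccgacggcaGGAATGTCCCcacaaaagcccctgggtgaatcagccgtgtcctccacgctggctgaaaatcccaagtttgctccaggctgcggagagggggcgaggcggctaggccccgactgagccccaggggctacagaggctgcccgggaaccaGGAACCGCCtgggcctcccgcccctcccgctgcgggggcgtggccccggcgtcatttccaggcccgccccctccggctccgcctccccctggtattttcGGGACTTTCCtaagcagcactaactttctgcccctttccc
Tnfaip3, second of 2 starts, chr10:19015361-19015660, minus strand: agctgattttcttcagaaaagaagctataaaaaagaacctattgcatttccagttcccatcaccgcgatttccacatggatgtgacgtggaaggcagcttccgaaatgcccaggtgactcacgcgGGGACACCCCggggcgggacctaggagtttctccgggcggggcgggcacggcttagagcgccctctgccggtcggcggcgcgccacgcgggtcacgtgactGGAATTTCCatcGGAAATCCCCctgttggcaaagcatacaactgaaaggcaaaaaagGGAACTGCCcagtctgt
Nfkbie, chr17:45555450-45555749, plus strand: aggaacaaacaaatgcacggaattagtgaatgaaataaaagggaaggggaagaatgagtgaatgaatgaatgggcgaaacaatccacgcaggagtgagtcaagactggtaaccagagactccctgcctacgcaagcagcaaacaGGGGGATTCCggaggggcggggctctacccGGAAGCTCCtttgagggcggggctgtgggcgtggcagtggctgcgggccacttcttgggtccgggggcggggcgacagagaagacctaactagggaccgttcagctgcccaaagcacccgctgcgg
Ikbke, chr1:131279514-131279813, minus strand: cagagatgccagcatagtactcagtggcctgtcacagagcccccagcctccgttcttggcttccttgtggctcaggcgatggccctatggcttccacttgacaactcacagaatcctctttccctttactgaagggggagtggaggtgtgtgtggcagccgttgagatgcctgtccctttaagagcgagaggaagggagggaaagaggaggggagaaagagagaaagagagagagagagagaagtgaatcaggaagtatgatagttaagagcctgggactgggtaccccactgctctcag

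The core was present in 8 of the 10 windows and in 5 of the 7 genes, against 18.5% of all 32851 promoter windows in the RefSeq table. The decameric consensus was present in 7 windows and in the same 5 genes (Bcl3, Nfkbia, Nfkb2, Tnfaip3 and Nfkbie), against 8.46% of all windows. In each of those 5 genes some core matches overlapped consensus matches, and matches that overlap are not separate sites. Merged in this way, the windows shown held 2 separate stretches in Bcl3 and in Nfkbie, and 3 in Nfkbia and in Nfkb2. In the Bcl3 window the stretch GGGAAGTCCC began 2 bases past the start, in Nfkbia GGAAATTCCC began at position -29, and in Nfkb2 GGGACTTTCC began 10 bases past its second start, the start base being 0. Tnfaip3 had 4 separate matching stretches at its second start, and Nfkbie had GGGGGATTCC at position -106. The windows of Rela and Ikbke held neither pattern within these 300 bases. Nfkb1, Relb and Nfkbiz had no window in the table. The genes were listed partly because they are known NF-kappaB targets, so these matches are a description of the sequence.

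The first question was how the 10 genes differed between injured and intact striatum, taken over both genotypes. Bcl3 rose most, 6.19-fold at 6 h, 12.6-fold at 3 d and 9.37-fold at 15 d, and Ikbke and Nfkb2 rose 2.47-fold to 2.68-fold at 3 d and 15 d. Relb and Nfkbia rose 1.40-fold to 1.46-fold at 6 h, and by 15 d all 10 genes were higher in injured than in intact striatum. Rela and Nfkb1, the canonical pair, did not pass the test at 6 h and rose at 3 d and 15 d. In edgeR, 3 of 10 members rose at 6 h, against 11.5% of the 18813 genes tested that rose and 9.76% that fell. At 3 d 10 of 10 rose, against 23.4% higher and 23.2% lower among all genes, and at 15 d 10 of 10, against 23.6% and 23.8%. No member fell. The members had a median log2 fold change of 0.38 at 6 h, 0.59 at 3 d and 0.87 at 15 d, beside -0.0028, -0.018 and -0.023 over all genes. Every injured library lay above every intact library for 4 members at 6 h, 7 at 3 d and 9 at 15 d, where 12.9%, 19.8% and 21.5% of all genes did so. In bulk tissue, more cells of a type and more RNA per cell cannot be told apart, and the microglial and reactive astrocyte sums given above were higher at 3 d and 15 d in all 8 libraries than in any intact library. Their part in these differences was not tested. At 6 h the microglial sum was lower than in any intact library, while the reactive astrocyte sum was higher.

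**Figure D2:**
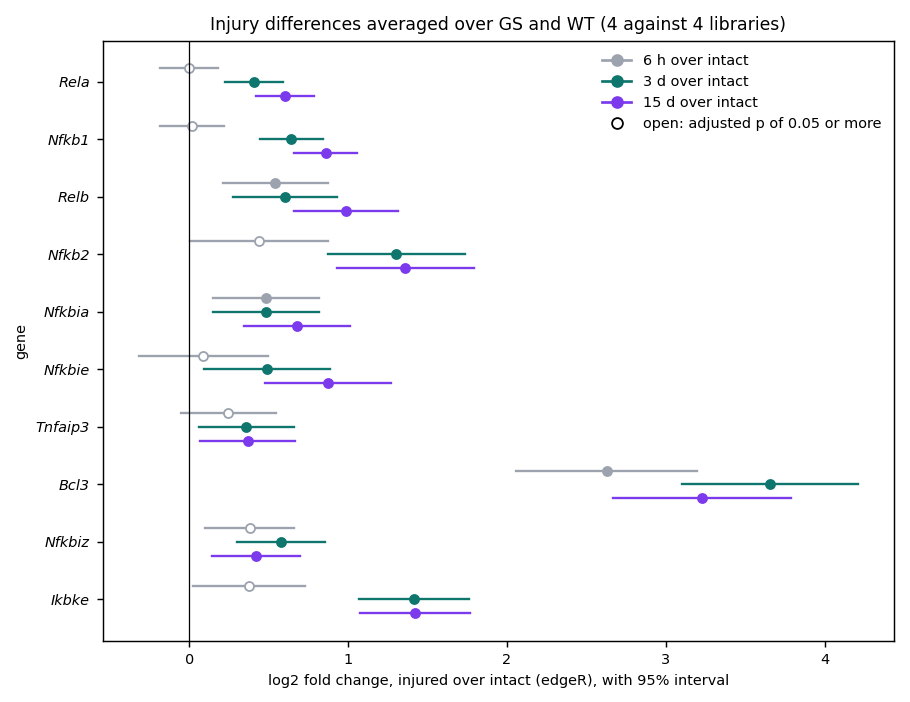
log2 fold change of each gene, injured over intact striatum, averaged over GS and WT (4 against 4 libraries), with the 95% interval as a line and open points where the edgeR adjusted p was 0.05 or more. Bcl3 lies at 2.63, 3.66 and 3.23, far right of the other genes, and the points of Rela and Nfkb1 at 6 h lie at 0.

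Without both libraries high in cortical markers, an alternative chosen after seeing the data, 1 of 10 members rose at 6 h (Bcl3), 7 at 3 d and 8 at 15 d in edgeR, where 8.09%, 36.8% and 38.9% of all genes passed in either direction. With the mean log2 level of the cortical markers as a covariate, 2 rose at 6 h, 4 at 3 d (Nfkb1, Nfkb2, Bcl3 and Ikbke) and 8 at 15 d, where 20.8%, 29.2% and 37.8% of all genes passed. The cortical sums were 18.1 to 25.8 CPM at 3 d, below the 34.9 to 193 CPM of intact striatum. At 3 d this covariate therefore cannot be fully told apart from the stage itself. Against a fold of at least 1.2 in place of no change, 1 member passed at 6 h (Bcl3), 6 at 3 d and 8 at 15 d, where 3.93%, 20.2% and 21.4% of all genes passed.

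**Figure D3:**
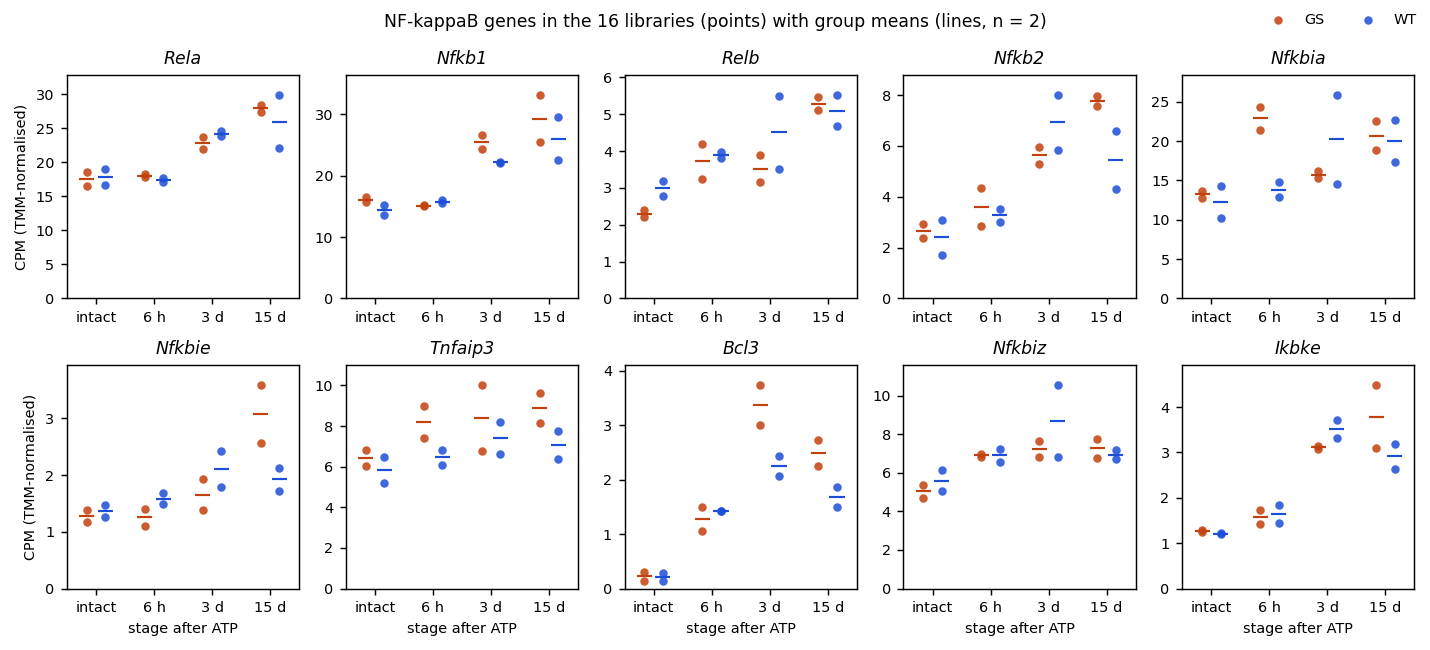
CPM of each gene in all 16 libraries (points) by stage, GS left of WT, with group means as lines (n = 2), on axes that start at 0. Bcl3 and Ikbke are low in all 4 intact libraries and high in all 3 d and 15 d libraries, and WT 3 d replicate 1 stands above its partner for Relb, Nfkb2, Nfkbia and Nfkbiz.

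Rela encodes RelA (p65), the subunit that carries most of the activating capacity of the canonical pair (NCBI Gene 19697, mm10 chromosome 19, 5637442 to 5648134). In GS striatum its level was 18.7 and 16.6 CPM when intact, 17.8 and 18.3 at 6 h, 21.9 and 23.7 at 3 d, and 27.4 and 28.5 at 15 d. In WT striatum it was 16.7 and 19.0 CPM when intact, 17.05 and 17.7 at 6 h, 24.6 and 23.9 at 3 d, and 22.1 and 29.9 at 15 d. The 6 h libraries lay inside the intact range, and every 3 d and 15 d library lay above it. The log2 fold change over intact striatum was -0.00195 ± 0.09 at 6 h (SE, 95% interval -0.18 to 0.18, edgeR adjusted p = 0.992), 0.41 ± 0.09 at 3 d (adjusted p = 0.00134) and 0.60 ± 0.09 at 15 d (adjusted p = 4.78e-05). At 3 d the call was lost with the cortical covariate (0.29, adjusted p = 0.0703) and against a fold of 1.2 (adjusted p = 0.073).

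Nfkb1 encodes p105, the precursor of the p50 subunit (NCBI Gene 18033, mm10 chromosome 3, 135584655 to 135691969). It had 16.5 and 15.7 CPM in intact GS striatum, 15.0 and 15.2 at 6 h, 24.3 and 26.6 at 3 d, and 25.4 and 33.2 at 15 d. Its WT levels were 13.6 and 15.2 CPM when intact, 15.96 and 15.5 at 6 h, 22.1 and 22.3 at 3 d, and 22.5 and 29.5 at 15 d. As for Rela, no 3 d or 15 d library lay inside the intact range. It differed from intact striatum by 0.02 ± 0.09 at 6 h (edgeR adjusted p = 0.911) and rose by 0.64 ± 0.09 at 3 d (adjusted p = 6.8e-05) and 0.86 ± 0.09 at 15 d (adjusted p = 4.85e-06) on the log2 scale. Both later calls held under all 26 alternatives tried.

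Relb encodes the partner of p52 in the non-canonical route and is itself a known target of the canonical pair (NCBI Gene 19698, mm10 chromosome 7, 19606217 to 19629438). Its GS levels were 2.39 and 2.21 CPM when intact, 4.197 and 3.25 at 6 h, 3.88 and 3.15 at 3 d, and 5.12 and 5.46 at 15 d. Its WT levels were 2.78 and 3.19 CPM when intact, 3.82 and 3.99 at 6 h, 5.50 and 3.53 at 3 d, and 4.67 and 5.53 at 15 d. Relb was already higher at 6 h, with no overlap between the injured and intact libraries, and at 3 d the lower GS library fell within the intact range. The log2 fold change was 0.54 ± 0.15 at 6 h (edgeR adjusted p = 0.0224), 0.60 ± 0.15 at 3 d (adjusted p = 0.00509) and 0.99 ± 0.15 at 15 d (adjusted p = 0.000111). The 6 h call was lost in edgeR without any 1 of 4 libraries, GS intact replicate 2, GS 6 h replicate 1, WT intact replicate 1 or WT 6 h replicate 2, with log2 fold changes of 0.44 to 0.53 and adjusted p from 0.0693 to 0.102.

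Nfkb2 encodes p100, which acts as an inhibitor until it is cut to the p52 subunit (NCBI Gene 18034, mm10 chromosome 19, 46300994 to 46312400). In GS striatum it had 2.39 and 2.94 CPM when intact, 4.34 and 2.84 at 6 h, 5.97 and 5.27 at 3 d, and 7.96 and 7.59 at 15 d. In WT striatum it had 1.71 and 3.08 CPM when intact, 3.51 and 3.01 at 6 h, 8.005 and 5.85 at 3 d, and 4.30 and 6.57 at 15 d. The lowest 3 d and 15 d libraries were above the highest intact library, while the 6 h libraries overlapped the intact ones. Nfkb2 rose more than the other subunit genes in value, by 1.305 ± 0.20 at 3 d (edgeR adjusted p = 0.000113) and 1.36 ± 0.20 at 15 d (adjusted p = 7.28e-05) on the log2 scale, with 0.44 ± 0.20 at 6 h (adjusted p = 0.143). The order among subunit genes was not tested. Without WT intact replicate 2 the 6 h value was 0.68 (adjusted p = 0.0422). In GENCODE M21 the exons of Nfkb2 share 77 of 3218 bases with a non-coding gene on the other strand. Whether reads were assigned by strand is not stated, so reads from such overlaps cannot be told apart.

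Nfkbia encodes IkappaB-alpha, the inhibitor that NF-kappaB induces most quickly in many cell types and that ends a first wave of its activity (NCBI Gene 18035, mm10 chromosome 12, 55489409 to 55492647). Its GS levels were 12.8 and 13.6 CPM when intact, 21.4 and 24.3 at 6 h, 16.1 and 15.3 at 3 d, and 22.5 and 18.9 at 15 d. Its WT levels were 10.2 and 14.3 CPM when intact, 12.8 and 14.8 at 6 h, 25.9 and 14.6 at 3 d, and 17.4 and 22.7 at 15 d. At 6 h both GS libraries lay above every intact library and both WT libraries, and at 3 d and 15 d all 4 libraries lay above every intact one. The highest value of all was in WT 3 d replicate 1, while replicate 2 of that group held 14.6 CPM. In replicate 1 the microglial sum of 759 CPM and the reactive astrocyte sum of 1313 CPM were the lowest of the 3 d libraries. Their part was not tested. Over both genotypes the log2 fold change was 0.48 ± 0.16 at 6 h (edgeR adjusted p = 0.0403), 0.49 ± 0.16 at 3 d (adjusted p = 0.0195) and 0.68 ± 0.16 at 15 d (adjusted p = 0.00247). The 6 h call was lost in edgeR without any 1 of 7 of the 8 libraries compared (all but WT intact replicate 2), with values of 0.37 to 0.53 and adjusted p from 0.0578 to 0.154. Over all libraries it was lost in limma-voom (0.49, adjusted p = 0.0551) and in edgeR with no filter (0.48, adjusted p = 0.0513). At 3 d it was lost without WT 3 d replicate 1 (0.25, adjusted p = 0.121), GS intact replicate 1, GS 3 d replicate 1 or WT intact replicate 1 (0.37 to 0.47, adjusted p from 0.0513 to 0.0926), and the 15 d call held under all 26 alternatives.

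Nfkbie encodes IkappaB-epsilon, a slower inhibitor of the same family (NCBI Gene 18037, mm10 chromosome 17, 45555700 to 45563169). It had 1.38 and 1.18 CPM in intact GS striatum, 1.41 and 1.09 at 6 h, 1.39 and 1.92 at 3 d, and 2.57 and 3.59 at 15 d. Its WT levels were 1.48 and 1.26 CPM when intact, 1.48 and 1.68 at 6 h, 2.42 and 1.79 at 3 d, and 1.72 and 2.12 at 15 d. It was clear of the intact range in all 4 libraries at 15 d and in 3 of 4 at 3 d. Set against intact striatum, its log2 fold change was 0.09 ± 0.19 at 6 h (edgeR adjusted p = 0.792), 0.49 ± 0.19 at 3 d (adjusted p = 0.0437) and 0.87 ± 0.19 at 15 d (adjusted p = 0.00137). The 3 d call was lost in edgeR without any 1 of 8 libraries, which were all 4 intact ones, both WT 6 h ones, GS 3 d replicate 2 and WT 3 d replicate 1, with values of 0.36 to 0.55 and adjusted p from 0.0532 to 0.168. It was also lost over all libraries in DESeq2 (0.50, adjusted p = 0.0517), in limma-voom (0.47, adjusted p = 0.0625) and with the replicate number as a block (0.49, adjusted p = 0.0504).

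Bcl3 encodes an IkappaB-like nuclear protein that binds p50 or p52 pairs on DNA (NCBI Gene 12051, mm10 chromosome 7, 19808462 to 19822824). In GS striatum it had 0.308 and 0.137 CPM when intact, 1.49 and 1.06 at 6 h, 3.00 and 3.74 at 3 d, and 2.25 and 2.72 at 15 d. In WT striatum it had 0.285 and 0.131 CPM when intact, 1.42 and 1.43 at 6 h, 2.43 and 2.06 at 3 d, and 1.49 and 1.87 at 15 d. The intact libraries held 18, 8, 16 and 7 reads of the gene, so its fold changes start from few counts, yet no injured library held fewer than 59. Relative to intact striatum, its log2 fold change was 2.63 ± 0.27 at 6 h (edgeR adjusted p = 3.33e-05), 3.66 ± 0.26 at 3 d (adjusted p = 2.11e-07) and 3.23 ± 0.26 at 15 d (adjusted p = 4.18e-07). These calls held under all 26 alternatives, with values of 2.39 to 2.98 at 6 h, 3.43 to 4.00 at 3 d and 3.00 to 3.57 at 15 d. Its exons share 55 of 1850 bases with an antisense gene.

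Nfkbiz encodes IkappaB-zeta, a nuclear cofactor that toll-like and interleukin-1 receptors induce and that helps p50 pairs switch on secondary response genes (NCBI Gene 80859, mm10 chromosome 16, 55811375 to 55838954). Its GS levels were 4.72 and 5.35 CPM when intact, 6.84 and 6.98 at 6 h, 7.67 and 6.81 at 3 d, and 6.76 and 7.78 at 15 d. Its WT levels were 5.06 and 6.14 CPM when intact, 7.26 and 6.57 at 6 h, 10.6 and 6.85 at 3 d, and 6.70 and 7.18 at 15 d. No injured library overlapped the intact ones at any stage. The log2 fold change was 0.38 ± 0.13 at 6 h (edgeR adjusted p = 0.0505), 0.58 ± 0.13 at 3 d (adjusted p = 0.00215) and 0.42 ± 0.13 at 15 d (adjusted p = 0.0159). The 6 h value passed in 5 of 26 alternatives, among them DESeq2 (0.38, adjusted p = 0.0295). At 15 d the call was lost without GS intact replicate 1, GS 15 d replicate 2 or WT intact replicate 1 (0.35 to 0.38, edgeR adjusted p from 0.0597 to 0.0694).

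Tnfaip3 encodes A20, which edits ubiquitin chains and so damps signalling from tumour necrosis factor and interleukin-1 receptors (NCBI Gene 21929, mm10 chromosome 10, 19000910 to 19015410). It had 6.05 and 6.84 CPM in intact GS striatum, 8.97 and 7.43 at 6 h, 6.76 and 10.0 at 3 d, and 8.13 and 9.60 at 15 d. Its WT levels were 5.18 and 6.497 CPM when intact, 6.84 and 6.08 at 6 h, 8.18 and 6.62 at 3 d, and 6.40 and 7.77 at 15 d. Injured and intact libraries overlapped at every stage. The log2 fold change was 0.25 ± 0.14 at 6 h (edgeR adjusted p = 0.234), 0.36 ± 0.14 at 3 d (adjusted p = 0.0476) and 0.37 ± 0.14 at 15 d (adjusted p = 0.0425). At both later stages its adjusted p was the highest among the 10 genes. At 3 d the call was lost in edgeR without any 1 of 11 libraries (all but WT intact replicate 2, GS 3 d replicate 1, WT 3 d replicate 2 and both WT 15 d libraries), and the value was 0.20 (adjusted p = 0.25) without GS 3 d replicate 2, in a range of 0.20 to 0.41. At 15 d it was lost without any 1 of 7 libraries (both GS intact ones, WT intact replicate 1, both WT 6 h ones, GS 15 d replicate 2 or WT 15 d replicate 2), with values of 0.29 to 0.42 and adjusted p from 0.0517 to 0.156. Over all libraries both calls of Tnfaip3 were lost in limma-voom (0.34 and 0.37, adjusted p = 0.065 and 0.0505) and in edgeR with no filter (0.36 and 0.37, adjusted p = 0.0569 and 0.0516).

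Ikbke encodes IKK-epsilon, an inducible kinase related to Tbk1 that also serves interferon signalling (NCBI Gene 56489, mm10 chromosome 1, 131254600 to 131279601). In GS striatum it had 1.25 and 1.2999 CPM when intact, 1.74 and 1.42 at 6 h, 3.15 and 3.08 at 3 d, and 3.10 and 4.49 at 15 d. In WT striatum it had 1.19 and 1.22 CPM when intact, 1.45 and 1.84 at 6 h, 3.72 and 3.33 at 3 d, and 2.65 and 3.19 at 15 d. The intact libraries were close together and every injured library lay above them, by a small margin at 6 h. Over both genotypes its log2 fold change was 0.38 ± 0.16 at 6 h (edgeR adjusted p = 0.12), 1.42 ± 0.16 at 3 d (adjusted p = 8.12e-06) and 1.42 ± 0.16 at 15 d (adjusted p = 6.98e-06). The later calls held under all 26 alternatives, with values of 1.34 to 1.45 at 3 d and 1.28 to 1.54 at 15 d. Its exons share 40 and 20 of 3251 bases with antisense genes.

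Between injured stages, 5 members rose at 3 d over 6 h and none passed at 15 d over 3 d. At 3 d over 6 h, Rela, Nfkb1, Nfkb2, Bcl3 and Ikbke rose, by 0.41 ± 0.09, 0.62 ± 0.09, 0.86 ± 0.20, 1.03 ± 0.21 and 1.04 ± 0.16 on the log2 scale (edgeR adjusted p from 6.97e-05 for Nfkb1 to 0.00207 for Nfkb2). These 5 of 10 members compare with 24.6% of all genes higher and 24.8% lower at 3 d than at 6 h. Relb, Nfkbia, Nfkbie, Tnfaip3 and Nfkbiz differed by 0.06 ± 0.15, 0.00386 ± 0.15, 0.40 ± 0.19, 0.11 ± 0.14 and 0.20 ± 0.13. Nfkbie passed without GS 3 d replicate 1 (0.51, edgeR adjusted p = 0.0477) and Nfkbiz without WT 3 d replicate 2 (0.34, adjusted p = 0.0241). At 15 d over 3 d, 0 of 10 members passed in edgeR, in DESeq2 or in limma-voom, against 6.76% of all genes higher and 7.07% lower in edgeR, and 3 members (Rela, Nfkb1 and Relb) had an unadjusted p under 0.05, as did 5510 of the 18813 genes, so that the members stood near the background. The largest values were 0.38 ± 0.18 for Nfkbie, 0.38 ± 0.15 for Relb and -0.43 ± 0.20 for Bcl3 (edgeR adjusted p = 0.174, 0.102 and 0.179). Up to 2 members passed when 1 library was left out, Relb without WT 3 d replicate 1 (0.56, adjusted p = 0.0317), Nfkb1 without GS 15 d replicate 1 (0.30, adjusted p = 0.0457), and both Rela and Nfkb1 without WT 15 d replicate 1 (0.30 and 0.31, adjusted p = 0.013 and 0.0308). In that library the microglial markers summed to 870 CPM, against 1298 to 1762 CPM in the other 15 d libraries, and their part was not tested.

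Injured and intact striatum were also compared within each genotype, 2 libraries against 2. At 6 h in GS, Bcl3 (2.51 ± 0.37), Nfkbia (0.79 ± 0.22) and Relb (0.70 ± 0.22) rose (edgeR adjusted p = 0.000903, 0.0273 and 0.0483), where 7.47% of all genes rose and 6.37% fell. At 6 h in WT, Bcl3 rose by 2.75 ± 0.38 (edgeR adjusted p = 0.00278), where 2.54% of all genes rose and 1.55% fell, and Nfkbia differed by 0.17 ± 0.22 and Relb by 0.39 ± 0.22 (adjusted p = 0.72 and 0.336). At 3 d 7 of 10 members rose in GS, against 18.6% of all genes higher and 16.4% lower, and 7 in WT, against 14.7% and 12.7%. The 6 that rose in both were Rela, Nfkb1, Nfkb2, Bcl3, Nfkbiz and Ikbke, with Relb added in GS (0.61 ± 0.22, adjusted p = 0.0419) and Nfkbia in WT (0.72 ± 0.22, adjusted p = 0.0258). At 15 d 9 of 10 rose in GS (all but Tnfaip3), against 19.4% higher and 17.6% lower, and 7 in WT (all but Nfkbie, Tnfaip3 and Nfkbiz), against 14.2% and 11.2%. A call in one genotype and none in the other does not show that they differ, and the test of that difference follows. In GS, Nfkbia and Relb lost their 6 h calls without any 1 of the 4 libraries compared, at 0.70 to 0.88 and 0.50 to 0.87. At 3 d in GS, Relb and Nfkbiz lost theirs without any 1 of the 4. Nfkb2 did so without GS intact replicate 1, and Rela without GS intact replicate 2 or GS 3 d replicate 2. In WT, Rela, Nfkbia and Nfkbiz lost their 3 d calls without WT intact replicate 1 or WT 3 d replicate 1. At 15 d in GS, Nfkbia and Nfkbiz lost their calls without any 1 of the 4 libraries compared, at 0.51 to 0.77 and 0.42 to 0.63. At 15 d in WT, Rela, Relb, Nfkb2 and Nfkbia lost theirs without WT intact replicate 1 or WT 15 d replicate 2. Calls gained were Tnfaip3 at 3 d in GS without GS 3 d replicate 1, and Relb at 3 d in WT without WT 3 d replicate 2. Such fits leave 1 library in a group, and their shares of all genes are not given here. These losses are thus not read as particular to the members. Without both libraries high in cortical markers, the WT counts were 0 at 6 h, 3 at 3 d and 3 at 15 d, where 0.037%, 10.9% and 11.4% of all genes passed. The log2 fold change of Bcl3 at 6 h in WT was then 3.41 (edgeR adjusted p = 0.0841).

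The second question was whether the 10 genes differed between GS and WT striatum. No member passed at any stage in edgeR. The shares of all genes that passed, in either direction, were 0.0159% in intact striatum, 0.00532% at 6 h, 0.0106% at 3 d, 0.00532% at 15 d and 0.0106% averaged over the 4 stages. DESeq2 and limma-voom likewise passed 0 members in each of these comparisons, where DESeq2 passed 0.0213% (15 d) to 1.12% (intact) of all genes. At an unadjusted p under 0.05 there were 0 members in intact striatum, 1 at 6 h (Nfkbia), 0 at 3 d, 1 at 15 d (Nfkbie) and 1 over the stages (Tnfaip3). Of the 18813 genes tested, 2056, 1285, 1552, 915 and 1857 had such a p in these comparisons, so that the members stood near the background.

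**Figure D4:**
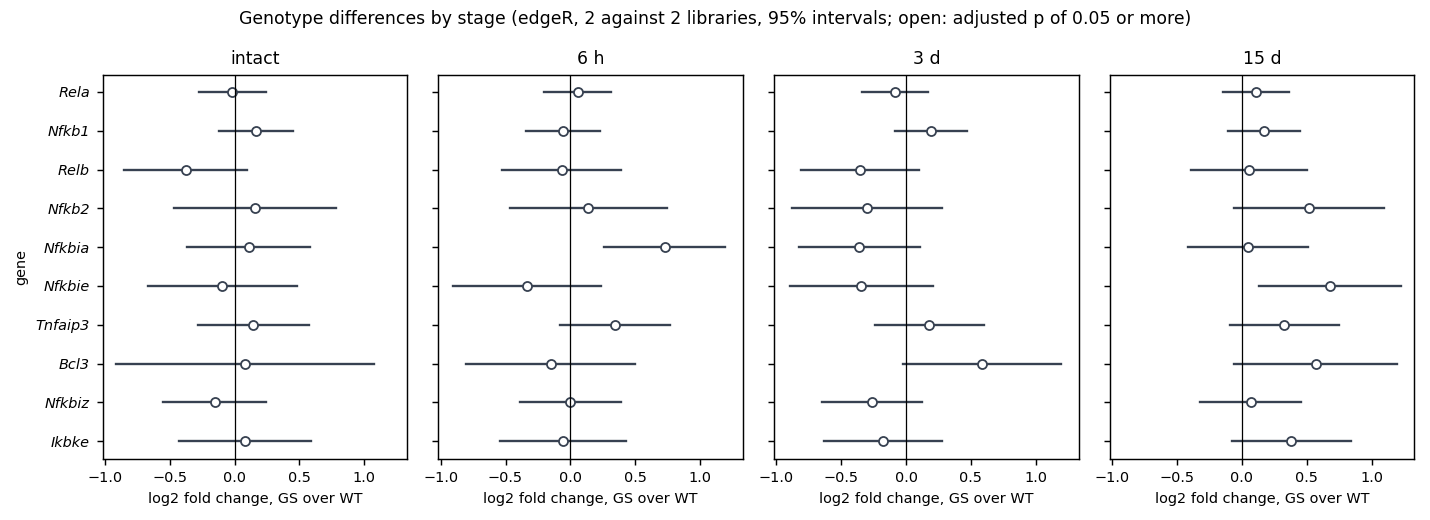
log2 fold change of each gene, GS over WT, at the 4 stages (2 against 2 libraries), with 95% intervals, where all points are open because the edgeR adjusted p was 0.05 or more. At 6 h the interval of Nfkbia (0.26 to 1.196) and at 15 d that of Nfkbie (0.13 to 1.22) lie above 0, and the other intervals include 0.

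Nfkbia at 6 h had the largest such value. It was at 21.4 and 24.3 CPM in GS libraries, against 12.8 and 14.8 CPM in WT libraries, with no overlap, a difference of 0.73 ± 0.22 on the log2 scale (95% interval 0.26 to 1.196, edgeR adjusted p = 0.507). Fitted on the 4 libraries at 6 h alone, it was the 1 member that passed (0.73, edgeR adjusted p = 0.017), where 0.337% of all genes did. WT 6 h replicate 2, the library with high cortical markers, held the higher of the WT values. Reactive astrocyte markers at 6 h summed to 221 and 200 CPM in GS, against 146 and 176 CPM in WT, and microglial markers to 293 and 309 CPM in GS, against 302 and 277 CPM in WT, and their part was not tested.

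Nfkbie at 15 d was at 2.57 and 3.59 CPM in GS libraries, against 1.72 and 2.12 CPM in WT libraries, a difference of 0.68 ± 0.25 (95% interval 0.13 to 1.22, edgeR adjusted p = 0.969). All 10 members had a GS value above the WT value at 15 d in the fit, and none of these differences passed. The median log2 fold change over all genes was then -0.0012, and the share of all genes above WT is not given here. In intact striatum 6 members lay above WT, at 6 h 4 and at 3 d 3. The members were read in the same libraries, so they are not separate observations of the genotype. Microglial markers at 15 d summed to 1311 and 1762 CPM in GS, against 870 and 1298 CPM in WT, and reactive astrocyte markers to 1536 and 1912 CPM in GS, against 969 and 1731 CPM in WT, and their part was not tested. Bcl3 at 3 d was at 3.00 and 3.74 CPM in GS, against 2.43 and 2.06 CPM in WT (0.58 ± 0.29, 95% interval -0.03 to 1.19, edgeR adjusted p = 0.616). Over the 4 stages Tnfaip3 differed by 0.25 ± 0.10 (95% interval 0.04 to 0.46, edgeR adjusted p = 0.455), and the averages of the other members ran from -0.19 ± 0.11 for Relb to 0.27 ± 0.17 for Bcl3. The narrowest interval over the stages was that of Rela, -0.11 to 0.14.

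Whether the injury difference itself differed between genotypes was tested as an interaction, the GS difference minus the WT difference. No member passed in edgeR, DESeq2 or limma-voom at any stage, and 0 had an unadjusted p under 0.05. Of all genes 0.0106% passed at 6 h, 0% at 3 d and 0% at 15 d in edgeR, and 1.48%, 6.59% and 0.833% in DESeq2. The largest values at 6 h and 15 d were 0.62 ± 0.31 for Nfkbia (95% interval -0.05 to 1.29, edgeR adjusted p = 0.561) and 0.77 ± 0.37 for Nfkbie (95% interval -0.02 to 1.57, adjusted p = 0.881). At 3 d Bcl3 gave 0.50 ± 0.55 and Nfkbia -0.47 ± 0.31 (edgeR adjusted p = 0.773 and 0.619).

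Genes elsewhere in the pathway, taken from 4 lists written with earlier results of these data known, were set beside the members, and comparisons at 6 h, 3 d and 15 d share their intact libraries. Each gene is given at the stages where its change was among the 4 largest of its list in that direction. It may have passed at others, as at 3 d Il1r1 (0.99 ± 0.13) and Ptgs2 (1.37 ± 0.27) did (edgeR adjusted p = 3.77e-05 and 0.000956). Of 12 upstream receptor genes, all in the table, 4 rose at 6 h, 10 at 3 d and 9 at 15 d, and none fell. Of all genes, 11.5%, 23.4% and 23.6% rose at these stages and 9.76%, 23.2% and 23.8% fell. The receptor list had a median log2 fold change of 0.23, 1.14 and 1.18 beside -0.0028, -0.018 and -0.023 over all genes. Tlr2, a receptor for bacterial lipoproteins and damage signals, rose by 1.57 ± 0.30, 3.94 ± 0.28 and 4.38 ± 0.29 on the log2 scale (edgeR adjusted p = 0.00236, 2.47e-07 and 9.57e-08). Tnfrsf1a, the main receptor of tumour necrosis factor, rose by 0.41 ± 0.13 at 6 h and 1.76 ± 0.13 at 15 d (adjusted p = 0.0345 and 1.52e-07). Tnfrsf1b, its second receptor, rose by 2.06 ± 0.15 at 3 d and 1.99 ± 0.15 at 15 d (adjusted p = 2.54e-07 and 2.18e-07). The interleukin-1 receptor gene Il1r1 rose by 0.65 ± 0.14 at 6 h (adjusted p = 0.00397), and Tlr4, the endotoxin receptor gene, by 2.18 ± 0.23 at 3 d and 2.14 ± 0.23 at 15 d (adjusted p = 3.82e-06 and 3.92e-06). Tnfrsf12a, which encodes the receptor of the cytokine TWEAK, rose by 0.83 ± 0.15 at 6 h and 1.96 ± 0.15 at 3 d (adjusted p = 0.0021 and 3.6e-07).

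Of 27 genes of adaptors and kinases, 3 rose and 1 fell at 6 h, 11 rose and 4 fell at 3 d, and 12 rose and 2 fell at 15 d. The share of all genes that rose was 11.5%, 23.4% and 23.6% at these stages and the share that fell 9.76%, 23.2% and 23.8%, and the list's median was 0.00092, 0.14 and 0.15. At 6 h Tbk1, the kinase akin to the product of Ikbke, rose by 0.25 ± 0.05, Ikbkg, the regulatory subunit of the IkappaB kinase, by 0.22 ± 0.05, and Birc2, a ubiquitin ligase of receptor complexes, by 0.22 ± 0.06 (edgeR adjusted p = 0.00196, 0.00936 and 0.015). Traf3, which restrains the non-canonical route, fell by 0.51 ± 0.07 at 6 h, to 35.8 CPM against 51.1 CPM in intact striatum (adjusted p = 0.000178). Myd88, the adaptor of toll-like and interleukin-1 receptors, rose by 1.29 ± 0.16 at 3 d and 1.22 ± 0.17 at 15 d (adjusted p = 2.24e-05 and 3.48e-05). The adaptor gene Card9 rose by 1.47 ± 0.24 and 1.34 ± 0.24 at these stages, the receptor-complex kinase gene Ripk1 by 1.07 ± 0.12 and 1.21 ± 0.12, and Irak4, a kinase that acts after Myd88, by 1.01 ± 0.17 and 1.28 ± 0.17 (adjusted p from 2.66e-06 to 0.000337). Tab1, a partner of the kinase encoded by Map3k7, fell by 0.52 ± 0.07 at 3 d and by 0.53 ± 0.07 at 15 d, and Tab3 by 0.30 ± 0.07 at 15 d (adjusted p = 2.79e-05, 2.38e-05 and 0.00248). Rbck1 and Sharpin, subunits of the linear ubiquitin ligase complex, fell at 3 d by 0.33 ± 0.06 and 0.17 ± 0.06, and Ikbkg by 0.16 ± 0.05 (adjusted p = 0.000755, 0.026 and 0.028).

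Of the other subunit and inhibitor genes, 13 of 14 were in the table, and 3 rose at 6 h, 5 rose and 1 fell at 3 d, and 6 rose and 2 fell at 15 d. In either direction these counts stand near the shares of all genes given above. Rel, the gene of the remaining NF-kappaB subunit c-Rel, rose by 0.59 ± 0.12 at 3 d and 0.54 ± 0.12 at 15 d (edgeR adjusted p = 0.00138 and 0.00228). Zc3h12a, whose product degrades inflammatory messenger RNAs, rose by 1.04 ± 0.24 and 1.32 ± 0.24 at these stages (adjusted p = 0.00251 and 0.000358). Irak3, an inhibitor of toll-like receptor signalling, rose by 0.79 ± 0.23, 0.65 ± 0.23 and 0.70 ± 0.23 at 6 h, 3 d and 15 d (adjusted p = 0.0268, 0.035 and 0.0242). Cyld, a deubiquitinase that restrains the pathway, rose by 0.21 ± 0.07 at 6 h and fell by 0.48 ± 0.07 at 15 d, to 271 CPM against 381 CPM in intact striatum (adjusted p = 0.0381 and 4.11e-05). Tnip1, a partner of A20, fell by 0.21 ± 0.08 at 3 d and by 0.25 ± 0.08 at 15 d (adjusted p = 0.0382 and 0.018), and Tnip2 rose by 0.46 ± 0.11 at 15 d (adjusted p = 0.00247). Itch, a ubiquitin ligase gene, rose by 0.14 ± 0.05 at 6 h (adjusted p = 0.0414) and N4bp1 by 0.23 ± 0.04 at 3 d (adjusted p = 0.000795).

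Of 29 known target genes 19 were in the table, which holds only genes with at least 1 count in every library and here lacks Tnf, Il1b, Il6, Ccl2, Cxcl1 and 5 others. Among the 19, 11 rose at 6 h, 17 at 3 d and 13 at 15 d, and 1 fell at 15 d, with a median of 0.54, 1.22 and 1.01. The shares of all genes were 11.5%, 23.4% and 23.6% higher and 9.76%, 23.2% and 23.8% lower. Icam1, an adhesion molecule for leukocytes, rose by 1.46 ± 0.19 at 6 h and 2.28 ± 0.19 at 3 d (edgeR adjusted p = 0.000215 and 6.84e-07). The survival gene Bcl2a1b rose by 1.15 ± 0.36, 4.39 ± 0.31 and 4.70 ± 0.31 at 6 h, 3 d and 15 d (adjusted p = 0.0333, 2.02e-07 and 9.57e-08), and as 1 of several near-identical copies its reads may be shared with the others. Plau, the urokinase gene, rose by 3.27 ± 0.34 and 3.81 ± 0.34 at 3 d and 15 d (adjusted p = 4.1e-06 and 1.05e-06). Ptgs2, the inducible cyclooxygenase gene, rose by 1.21 ± 0.27 at 6 h (adjusted p = 0.00689). Lcn2, which also stands in the reactive astrocyte list, rose by 1.39 ± 0.46 at 6 h and 3.18 ± 0.46 at 3 d (adjusted p = 0.0436 and 6.18e-05). At 15 d Cd83, a surface marker of activated immune cells, rose by 3.35 ± 0.22, the adaptor gene Traf1 rose by 2.77 ± 0.27, and Sod2, the mitochondrial superoxide dismutase gene, fell by 0.31 ± 0.06 (adjusted p = 9.57e-08, 1.84e-06 and 0.000523). Between GS and WT over the stages, 0 genes of the 4 lists passed. Without both libraries high in cortical markers, fewer genes of each list rose at 6 h, where fewer of all genes passed too. The counts of each list at 3 d and 15 d then differed by at most 2 within a direction.

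**Figure D5:**
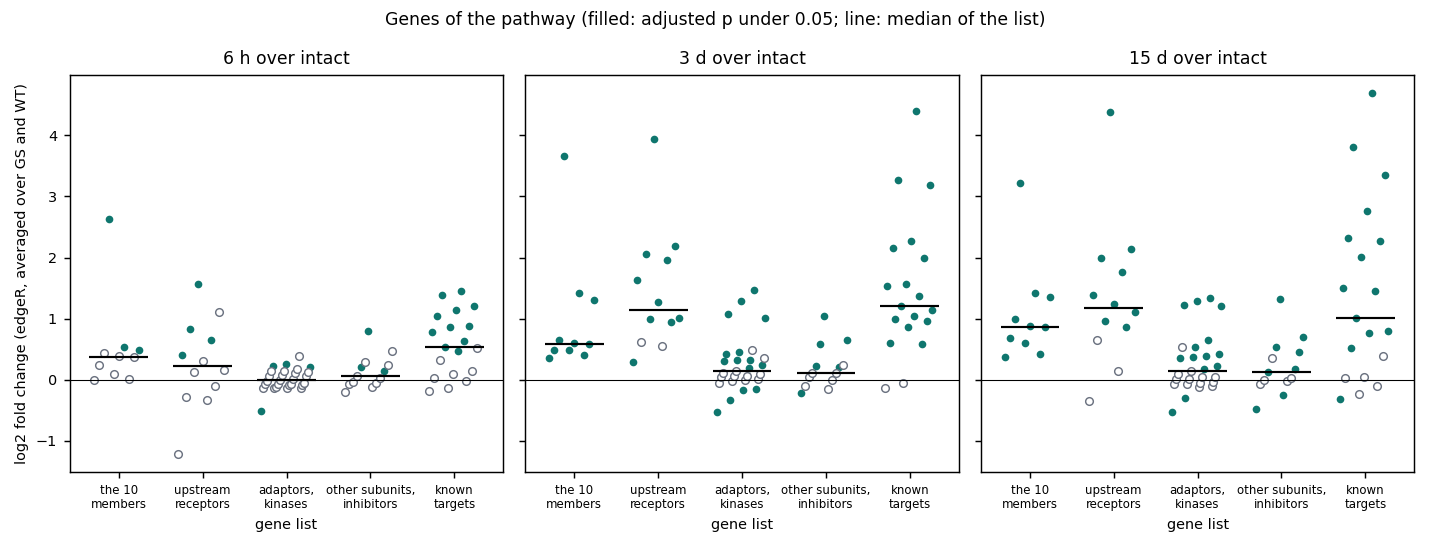
log2 fold change over intact striatum, averaged over GS and WT, of the 10 members and of the 4 other pathway lists at 6 h, 3 d and 15 d (1 point per gene, filled where the edgeR adjusted p was under 0.05, line at the list's median). The receptor and target lists have medians of 1.14 and 1.22 at 3 d, the members 0.59, and the adaptors and kinases 0.14.

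By the pattern over the 8 group means on the log2 CPM scale, the members resembled one another to different degrees. Pearson's r between members ran from 0.463 for Nfkbia with Nfkbie to 0.989 for Nfkb2 with Ikbke, as a description over 8 means that share the stages. Rela and Nfkb1 stood at 0.963. Among all genes with a mean of at least 1 CPM, the closest to Nfkb1 were Tgfb1, Anxa3 and Slc29a3, each at 0.995, and the closest to Ikbke were Eif4ebp1 (0.995), Pdlim4 (0.993) and Tmem123 (0.992). Cp, which encodes ceruloplasmin, was closest to Nfkb2 at 0.995. Bcl3 was most like Tpr (0.992), Jmjd1c (0.985) and Bach1 (0.984), and Nfkbiz like Lin7a (0.975), Ppig (0.966) and Il1rn (0.965), whose product blocks the interleukin-1 receptor. The closest to Rela were LOC105244208 (0.995), Dbi (0.993) and C4a (0.992), and to Relb Myb (0.988), Stk33 (0.987) and Lrrc74b (0.986). The nearest gene stood at 0.967 for Nfkbia (Rhpn2), 0.965 for Nfkbie (Cbfa2t3) and 0.942 for Tnfaip3 (Gm5643). No p is given for these values, since they were picked as the highest of many genes that follow the same stages.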

How the data were processed

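RNA-seq of striatum gave 16 libraries in 8 groups of 2, named from the labels, and the columns headed NT were matched to WT by elimination. The authors deposited raw read counts per gene, per the file headers, for 19457 genes with at least 1 count in every library. Per the submitters' processing notes, FastQC 0.11.7 and mm10 were used, whereas no aligner, counting tool or strand setting is named there. Testing used edgeR 4.0.16 (R 4.3.3), by TMM scaling, the filterByExpr filter (18813 genes kept, 644 removed) and the quasi-likelihood test with 1 coefficient per group over all 16 libraries. Common biological variation was 10.1% with 8 residual degrees of freedom. P-values were Benjamini-Hochberg adjusted over all genes tested, with a threshold of 0.05, and SE is the absolute log2 fold change over the square root of F. The labels call replicates biological without naming animals, so p-values measure the spread between these libraries. Replicates differed by 9.72 to 32.6 times the chi-square of sampling noise per degree of freedom, and none were merged. The steps were tested on simulated counts. Alternatives were other scaling, filters, designs, a fold threshold, a cortical covariate, DESeq2 1.42.0, limma-voom (limma 3.58.1) and leaving out libraries. Within each group the difference in log2 CPM between replicate 1 and replicate 2 was taken for every gene. These differences correlated between groups by -0.099 to 0.174 over 28 pairs of groups. The 3 pairs above 0.1 were those among WT 3 d, WT 15 d and GS 15 d (0.171, 0.174 and 0.147). Replicate numbers were therefore not taken as pairs. Named genes are all members, up to 4 genes per direction of each pathway list with the largest change past the threshold, and the 3 genes most like each member. The members and lists were chosen with earlier results of these data known. Transcript lengths are of the longest GENCODE M21 transcript linked to RefSeq. Protein sequences were not used here.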

Additional observations from a re-analysis of the deposited data

How the results depend on the processing

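Each member count was recomputed under 26 alternatives. Against a fold of at least 1.2, the members past the threshold numbered 1 at 6 h, 6 at 3 d, 1 at 6 h in GS, 4 at 3 d in GS and 4 at 3 d in WT, where 3.93%, 20.2%, 3.58%, 16.4% and 11.5% of all genes passed, since that test asks for a larger change. With the cortical covariate they numbered 4 at 3 d, 3 at 3 d in GS and 3 at 3 d in WT, where 29.2%, 27.7% and 12.6% of all genes passed, and the cause was not tested. Cortical marker sums at 3 d all lay below the intact ones, so that covariate is not separate from the stage there. With only the groups compared in the fit, 1 member (Nfkbia) passed for GS over WT at 6 h, as did 0.337% of all genes, and the cause was not tested. This fit could not be changed for the genotype difference over the stages, which uses all 8 groups. Without both libraries high in cortical markers, chosen after seeing the data, 1 passed at 6 h, 0 at 6 h in WT, 3 at 3 d in WT and 3 at 15 d in WT, where 8.09%, 0.037%, 10.9% and 11.4% of all genes passed, with fewer samples. Leaving out 1 library at a time gave 1 to 4 members at 6 h, 7 to 10 at 3 d, 8 to 10 at 15 d, 1 to 4 at 6 h in GS, 1 to 1 at 6 h in WT, 4 to 7 at 3 d in GS, 4 to 8 at 3 d in WT, 7 to 10 at 15 d in GS and 3 to 7 at 15 d in WT. It gave 5 to 6 for 3 d over 6 h, 0 to 2 for 15 d over 3 d, and 0 in every genotype comparison and interaction. Where a group was left with 1 library, that library was assumed to vary like the others. The shares of all genes that passed with 1 library left out are not given here. A lower count of members there is thus not read as particular to them. The replicate block moved the 3 d count to 9, with Nfkbie at an edgeR adjusted p of 0.0504, and every other count stayed within 1.5 times. No called value reversed, and 31 of 1890 member values changed sign without a call in the 10 settings that leave out no single library. Bcl3 in intact striatum rests on 7 to 18 reads per library, which limits the precision of its fold changes.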
